A study of Homo sapiens with 2 samples.

Results

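The genes described here are 10 members of the interleukin 6 (IL6) family system: the ligand genes IL11, IL6, LIF and CLCF1, the receptor genes IL6R, IL11RA, IL6ST, LIFR and OSMR, and STAT3. They were chosen by symbol, and each stood on 1 row of a table of 56255 gene symbols. The table holds RNA sequencing values of A549 cells, an established human lung adenocarcinoma line with epithelial features. The control library, from a sample titled wild type, is called WT. The other library, called MYOCD, comes from the same line with overexpression of MYOCD, the gene of myocardin. Myocardin is a muscle protein that activates genes together with the DNA-binding factor SRF. The column used for WT is headed by letters left unexplained in the labels, and a key above the table names it as WT. Both were grown in DMEM with serum. The labels do not say which vector or form of MYOCD was used, or whether the overexpressing cells were 1 clone or a pool. Each group is a single library, so no value has a replicate error, no test was possible and all differences below are between these 2 libraries.

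Cytokines of this family are secreted proteins that bind a receptor with a shared signalling chain, gp130, the product of IL6ST. IL6 and IL11 each first bind a receptor of their own, IL6R or IL11RA, which carries no signal itself, and the complex then pairs gp130 with a second gp130. LIF pairs gp130 with LIFR, oncostatin M pairs it with OSMR or LIFR, and the product of CLCF1 acts through the CNTFR receptor together with gp130 and LIFR. JAK kinases bound to the paired chains phosphorylate STAT3, which enters the nucleus and activates target genes, among them SOCS3, a feedback inhibitor. IL11 is known in lung and other organs as a cytokine induced by TGF-beta and by AP-1 factors.

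The windows around the start sites of IL11 and IL6R are shown because these were the members with the largest differences between the libraries, in opposite directions, and because a motif search gave the same AP-1 match in both. The RefSeq promoter table (GRCh38.p14), with windows from 250 bases before to 50 after each start site, matched 8 of the 10 members with 11 windows. LIF and CLCF1 had no entry. Each sequence is written 5′ to 3′ on the strand of the gene, and capitals mark the AP-1 match. The IL11 window is chr19:55370414-55370713, minus strand, and the IL6R window is chr1:154405093-154405392, plus strand.
IL11: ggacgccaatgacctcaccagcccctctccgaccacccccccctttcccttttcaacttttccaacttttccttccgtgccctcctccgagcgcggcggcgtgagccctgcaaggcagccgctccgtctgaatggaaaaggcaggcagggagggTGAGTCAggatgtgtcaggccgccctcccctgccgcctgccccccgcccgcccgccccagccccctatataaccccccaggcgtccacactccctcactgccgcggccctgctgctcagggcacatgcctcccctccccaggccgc
IL6R: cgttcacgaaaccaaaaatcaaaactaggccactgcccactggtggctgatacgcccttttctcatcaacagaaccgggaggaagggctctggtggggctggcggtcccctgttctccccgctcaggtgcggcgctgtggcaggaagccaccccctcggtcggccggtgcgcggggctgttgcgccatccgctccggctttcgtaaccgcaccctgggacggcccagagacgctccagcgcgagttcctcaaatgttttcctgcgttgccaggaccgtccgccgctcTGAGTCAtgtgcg

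All 11 windows were searched on both strands for the AP-1 motif TGACTCA, the STAT motif TTCNNNGAA, the TATA motif TATAAA and the CArG box, the motif that SRF binds, and no matches of different motifs overlapped. The capitals are TGAGTCA, the reverse complement of the AP-1 motif. The match begins 96 bases upstream of the IL11 start and 37 bases downstream of the IL6R start. These starts are those of the RefSeq promoter table. The GENCODE 29 model of IL6R begins further upstream, at 154405193 inside the window, so the match lies deeper within that model. The AP-1 motif was found in 4.95% of the 35116 windows of the table, the STAT motif in 7.66%, TATAAA in 11.5% and the CArG box in 1.29%. No CArG box was found in the 11 windows of the 8 members. The STAT motif was found in 2 of the 3 LIFR windows, as TTCCTTGAA 165 bases upstream of one start and TTCATCGAA 182 bases upstream of another. The window with TTCATCGAA was the only one of the 11 with the TATA motif. It held TATAAA 200 bases upstream of its start and the reverse complement, TTTATA, 202 bases upstream. A match is a string of letters and no measure of binding, and a missing match says only that these letters are not in the window.

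The values are RPKM, reads scaled to gene length and library size, so levels can be set side by side between genes. A difference is given as log2((MYOCD + 0.5)/(WT + 0.5)), where the pseudocount of 0.5 RPKM draws low values towards 0. A gene was called higher or lower at 2-fold or more on that scale if it had at least 1 RPKM in a library. Of the 10 members 9 passed this filter, 1 was called higher and 0 were called lower. Over all 17350 genes past the filter 5.42% were called higher and 6.35% lower, 11.8% together, and over the 12337 protein-coding genes among them 3.02% and 3.1%, or 6.11% together. The members' median log2 change was -0.21 and 8 of the 9 were below 0, against a median of -0.00 over all genes, of which 50.2% were below 0. The members also numbered 1 higher and 0 lower with a filter of at least 5 RPKM (3.93% and 4.46% of all genes), without a filter (2.17% and 2.57%), with a pseudocount of 1 RPKM (4.27% and 4.84%) and with the median of 11 reference genes set to 0 (6.19% and 5.67%), and 1 higher and 1 lower with a pseudocount of 0.1 RPKM (6.96% and 8.25%). The 10 were chosen with these values known, so the counts describe them and support nothing further.

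MYOCD itself was measured first, as a check of the labels, and measured 0.304 RPKM in WT against 48.6 in MYOCD. Epithelial marker transcripts were abundant in both libraries, with KRT18 at 1647 and 1134 RPKM and KRT8 at 1523 and 1059. The 7 epithelial markers summed to 3332 RPKM in WT and 2291 in MYOCD, a difference that KRT8 and KRT18 carry, while the median log2 change of the list was 0.03. Of its others, EPCAM was called higher (0.889 and 2.57 RPKM) and ELF3 lower (123 and 56.0), and CDH1 (35.01 and 35.8), KRT19 (2.94 and 3.24) and CLDN4 (0.839 and 1.32) lay under 2-fold. Of 9 fibroblast markers 2 passed the filter, with sums of 5.75 and 16.2 RPKM, in which COL1A1 made up 3.05 and 14.3 and THY1 1.91 and 0.959. Of the 7 that did not pass, DCN and FAP were listed at 0 in both libraries. COL1A2 (0 and 0.1745 RPKM), COL3A1 (0.109 and 0.138), LUM (0.191 and 0.241), PDGFRA (0.0474 and 0.422) and PDGFRB (0.432 and 0.00968) lay under 1 RPKM in both. Of 10 blood cell markers 3 passed, with sums of 22.3 and 27.6 RPKM, most of it CD68 (18.3 and 25.1) and CD14 (2.31 and 1.17), while PTPRC, CD3E, CD3D and MS4A1 were listed at 0 in both. None of 6 endothelial markers passed, and CLDN5 (0.290 and 0.0868 RPKM) and PECAM1 (0.00689 and 0.139) were the most abundant of them. The part of COL1A1-expressing or CD68-expressing cells in the results below was not tested.

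Among the ligands, IL11 was the member with the large difference. IL11 (chromosome 19, 55364389 to 55370463, minus strand, GENCODE 29 on GRCh38) measured 5.48 RPKM in WT against 31.3 in MYOCD. The ratio of MYOCD to WT was 5.72 between the deposited values, and the log2 change was 2.41. The IL11 level in WT was reached or passed by 18.6% of all symbols, and its level in MYOCD by 6.60%. Of the 12337 protein-coding genes past the filter, 35 (0.284%), IL11 included, had a log2 change at least as large, and of all 17350 genes 240 (1.38%) did. No other annotated gene overlaps the IL11 gene model. In these bulk libraries, a difference in the number of cells of a type and a difference in RNA per cell cannot be told apart.

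The other ligand transcripts were nearly level between the libraries. LIF (chromosome 22, 30240447 to 30246851, minus strand), which encodes leukemia inhibitory factor, measured 35.8 RPKM in WT against 31.2 in MYOCD, a log2 change of -0.20. CLCF1 (chromosome 11, 67364168 to 67374177, minus strand), the gene of cardiotrophin-like cytokine factor, stood at 11.7 and 9.83 RPKM, a log2 change of -0.24. Reads may be shared here too: the CLCF1 model has 61 exon bases in common on its own strand with AP003419.1 (14.8 and 23.0 RPKM), and LIF has 175 in common with AC004264.1 on the opposite strand (9.75 and 6.45 RPKM). IL6 (chromosome 7, 22725884 to 22732002, plus strand), the founding cytokine of the family, stood at 0.317 and 0.409 RPKM. IL6 was the 1 member that did not pass the filter, and at this level its log2 change of 0.15 carries little weight because the depth of the libraries is unknown.

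The order of the ligand levels therefore differed between the libraries. In WT it was LIF, CLCF1, IL11 and IL6, with LIF at 6.54 times the level of IL11. In MYOCD the levels of IL11 and LIF were all but equal, at 1.00 times, and CLCF1 and IL6 followed. The 4 ligand genes summed to 53.3 RPKM in WT and 72.8 in MYOCD. IL11 made up 10.3% of that sum in WT and 43.1% in MYOCD, while LIF went from 67.1% to 42.9%. Without IL11 the sum was 47.9 RPKM in WT and 41.4 in MYOCD.

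**Figure D1:**
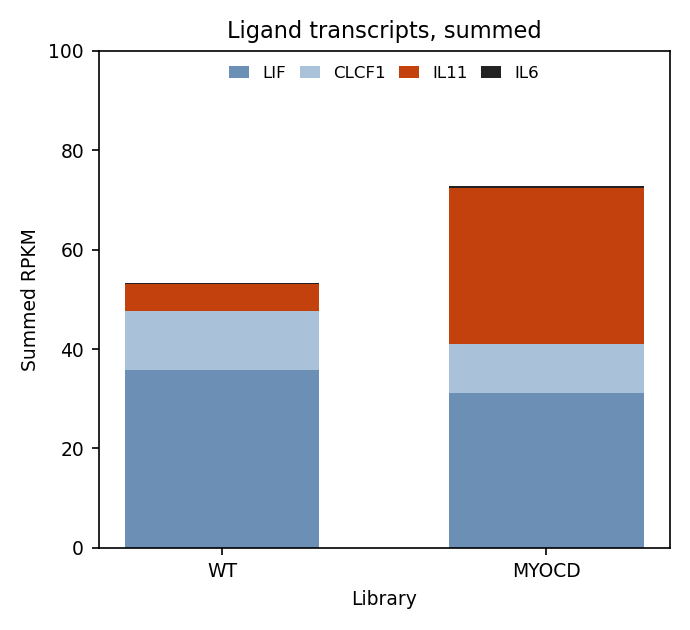
Summed RPKM of the ligand genes LIF, CLCF1, IL11 and IL6 (vertical axis, starting at 0) in the WT and the MYOCD library, 1 library each, with no error bars. The stack is 72.8 RPKM high in MYOCD and 53.3 in WT, and the IL11 segment is 5.48 RPKM in WT and 31.3 in MYOCD, while the LIF and CLCF1 segments are slightly smaller in MYOCD.

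The ligand-binding receptors IL6R and IL11RA had lower values in MYOCD, opposite in sign to IL11. IL6R (chromosome 1, 154405193 to 154469450, plus strand) measured 5.17 RPKM in WT against 2.46 in MYOCD. The WT level was 2.10 times the MYOCD level, but with the pseudocount the log2 change was -0.94, just short of the call. With a pseudocount of 0.1 RPKM the log2 change was -1.04 and IL6R was called lower, as were 8.25% of all genes at that setting. IL11RA (chromosome 9, 34650702 to 34661892, plus strand) stood at 6.58 and 4.35 RPKM, a log2 change of -0.54. Of the protein-coding genes past the filter, 3.63% had a log2 change at or below that of IL6R and 9.96% at or below that of IL11RA. Over all genes past the filter these shares were 7.03% and 14.4%. The IL11RA model shares 334 exon bases on its own strand with GALT, which stood at 11.8 and 13.6 RPKM. It also shares 410 with AL162231.3, which was listed at 0 in both libraries. The IL11RA level is uncertain where reads were shared.

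The signalling chain IL6ST was the most abundant receptor transcript in both libraries. IL6ST (chromosome 5, 55935095 to 55994993, minus strand) measured 114 RPKM in WT against 80.1 in MYOCD, a log2 change of -0.51, which 11.3% of protein-coding genes and 15.7% of all genes past the filter matched or went below. It overlaps AC008914.1 on the opposite strand by 797 exon bases. That antisense model stood at 44.5 and 39.0 RPKM, and the use of strand in counting is not stated in the labels, so reads of the 2 genes may be mixed. IL6ST stood at 22.1 times the level of IL6R in WT and 32.5 times in MYOCD, and at 17.3 and 18.4 times that of IL11RA.

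The long chains that pair with gp130 lay nearer to their WT values. OSMR (chromosome 5, 38845858 to 38945596, plus strand), the oncostatin M receptor chain, measured 44.6 RPKM in WT against 41.8 in MYOCD, a log2 change of -0.09. LIFR (chromosome 5, 38474963 to 38608354, minus strand), the LIF receptor chain, stood at 6.21 and 5.29 RPKM, a log2 change of -0.21. The pair lie next to each other on chromosome 5, with no protein-coding gene in the 237504 bases between them, and OSMR stood at 7.19 times the level of LIFR in WT and 7.90 times in MYOCD. LIFR shares 629 exon bases with its antisense gene LIFR-AS1, which stood at 0.305 and 0.164 RPKM, and OSMR shares 229 with the opposite-strand gene RICTOR, at 12.9 and 11.3.

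The order of the receptors was IL6ST, OSMR, IL11RA, LIFR and IL6R in WT, and IL6ST, OSMR, LIFR, IL11RA and IL6R in MYOCD. LIFR and IL11RA, which changed places, differed by a ratio of 0.943 in WT and 1.21 in MYOCD, and without replicates their order in either library cannot be called. All 5 receptor genes had lower values in MYOCD, and their sum was 177 RPKM in WT and 134 in MYOCD. When the median of 11 reference genes was set to 0, the log2 change of OSMR was -0.01 and the other 4 receptors were below 0. IL11 stood at 0.832 times the level of its receptor IL11RA in WT and 7.19 times in MYOCD. LIF stood at 5.77 and 5.90 times the level of LIFR.

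STAT3 (chromosome 17, 42313324 to 42388568, minus strand), the transcription factor at the end of the pathway, measured 66.6 RPKM in WT against 66.5 in MYOCD. Its log2 change of -0.00 was the smallest in size among the 10, and it was 0.08 with the reference genes at 0, so no direction can be given. The values are transcript levels and hold nothing on the phosphorylation of STAT3.

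**Figure D2:**
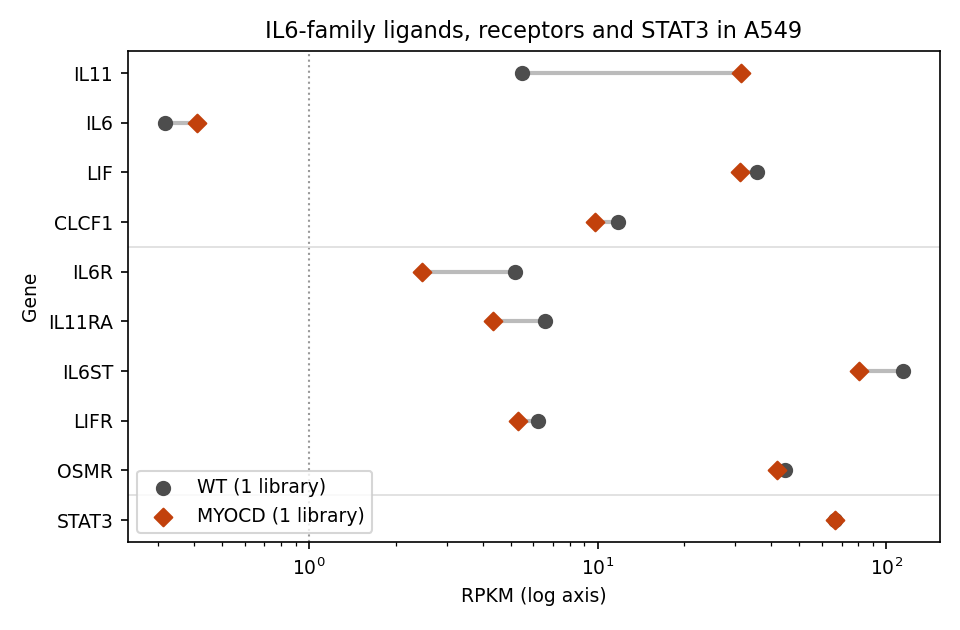
RPKM on a log axis for the 10 genes, in the order ligands, receptors and STAT3, with grey circles for the WT library and orange diamonds for the MYOCD library, 1 library each. The dotted line marks 1 RPKM, which IL6 does not reach, and IL11 has the widest gap, from 5.48 to 31.3 RPKM, while the diamonds of the 5 receptors lie to the left of the circles.

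**Figure D3:**
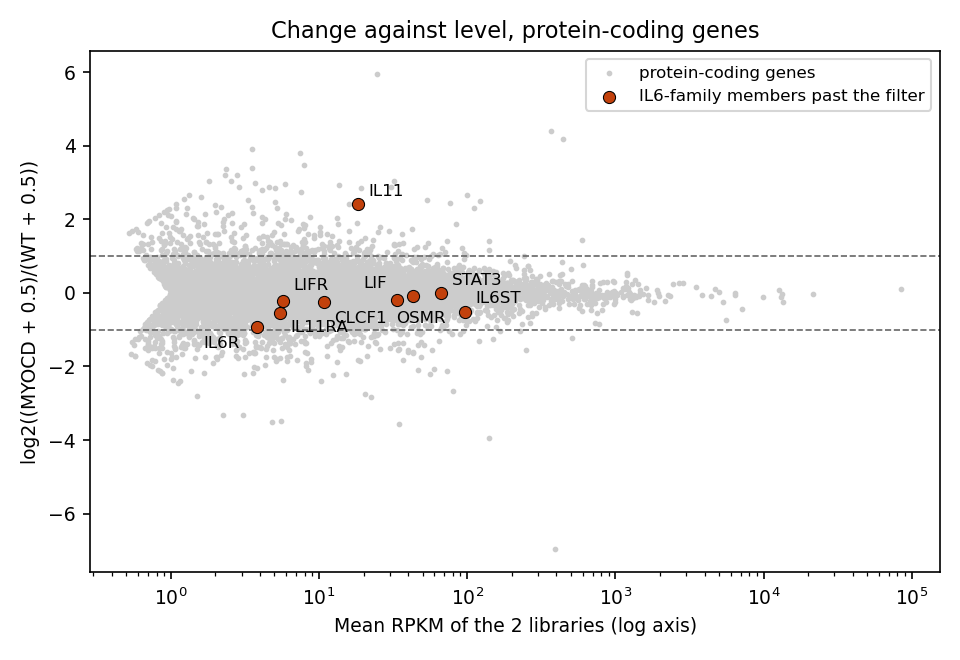
Log2 change with a pseudocount of 0.5 RPKM (vertical axis) against the mean RPKM of the 2 libraries (log axis) for 12337 protein-coding genes with at least 1 RPKM in a library, in grey, and the 9 members that passed, in orange. Dashed lines mark 2-fold, which IL11 passes at 2.41, while IL6R lies just inside the lower line at -0.94.

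The rest of the pathway was followed in 8 lists of 138 genes, of which 5 genes stood in 2 lists. Of 8 other ligands and soluble partners 3 passed the filter, and EBI3, which encodes the shared subunit of IL27 and IL35, was called lower at 1.58 RPKM in WT against 0.508 in MYOCD, where 6.35% of all genes were. That call was lost with a pseudocount of 1 RPKM and with the reference genes at 0, and EBI3 does not reach 5 RPKM. CNTF, the ciliary neurotrophic factor gene, stood at 1.19 and 0.851 RPKM. OSM, the ligand of OSMR, lay at 0.188 and 0.101 RPKM. Of 5 other receptor genes IL27RA alone passed, at 2.77 and 3.91 RPKM. CNTFR, the binding receptor for CLCF1, lay at 0.0505 and 0.0753 RPKM, under the filter in both libraries.

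Signal carriers were close to their WT levels apart from STAT4. In this list 14 of 17 genes passed, 0 were called higher and 1 lower, near the shares of 5.42% and 6.35% over all genes, and the median log2 change was 0.02. STAT4, a STAT best known in lymphocytes, measured 27.5 RPKM in WT against 10.6 in MYOCD, a log2 change of -1.34. The adaptor gene SHC1 stood at 124 and 115 RPKM. Among the kinases that bind gp130, JAK1 stood at 78.7 and 92.1 RPKM, TYK2 at 30.2 and 30.8, and JAK2 at 4.82 and 2.78.

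Of 19 inhibitors 14 passed and 0 were called in either direction, near the shares of 5.42% higher and 6.35% lower over all genes. Their median log2 change was -0.09. SOCS3, the inhibitor that binds gp130 and is itself a STAT3 target, measured 16.1 RPKM in WT against 16.4 in MYOCD. SOCS6 stood at 30.5 and 25.4 RPKM. PIAS4, of the family of SUMO ligases that restrain STATs, stood at 35.0 and 20.3, and PTPN2, a phosphatase of JAKs and STATs, at 32.5 and 19.7. Of the 10 genes of receptor shedding and trafficking all passed and 0 were called, where 11.8% of all genes were called in either direction. The lowest log2 change among them was that of SORL1, a sorting receptor gene, at 4.90 and 2.28 RPKM (-0.96). SORL1 was called lower with a pseudocount of 0.1 RPKM, as were 8.25% of all genes at that setting. ERAP1 stood at 10.5 and 5.90 RPKM and USP12 at 27.4 and 18.04. ADAM10, a protease that can release IL6R and IL11RA from the cell, stood at 190 and 155 RPKM, ADAM17 at 36.7 and 30.6, RHBDF2, a partner of ADAM17, at 38.4 and 45.1, and the ubiquitin ligase gene STUB1 at 29.9 and 38.8.

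STAT3 response genes had values in both directions. Of 28 genes 25 passed, 2 were called higher and 1 lower, beside 5.42% and 6.35% over all genes, and the median log2 change was 0.06. The mucin gene MUC1 measured 2.39 RPKM in WT against 6.95 in MYOCD and the IL4 receptor gene IL4R at 6.94 and 17.6. The adhesion molecule gene ICAM1 stood at 1.24 and 0.152. With the reference genes at 0, 3 were called higher, with FOSL2 added. The median was 0.25 with a filter of at least 5 RPKM. The genes of this list answer to other factors as well, so the list is no measure of STAT3 activity alone.

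Acute phase genes, the plasma protein genes that IL6 is known to induce in liver, were mostly under 1 RPKM in both libraries. Of 25 genes 8 passed the filter, of which 0 were called higher and 2 lower, beside 5.42% and 6.35% over all genes, with a median log2 change of -0.54. Over all 25 without a filter the median was -0.14, with 1 called higher and 4 lower, beside 2.17% and 2.57% of all genes. Of those calls, SERPINA1 (higher) and SAA1 and SAA2 (lower) lay under 1 RPKM in both libraries. With at least 5 RPKM 1 was called lower, beside 4.46% of all genes. The fibrinogen chain gene FGA measured 20.8 RPKM in WT against 4.03 in MYOCD, and its partners FGB at 12.6 and 8.003 and FGG at 13.8 and 10.2. ITIH4, an inhibitor heavy chain gene, stood at 1.82 and 0.307 RPKM and the complement gene C3 at 46.3 and 31.5. CRP, the C-reactive protein gene, was listed at 0 in both libraries.

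Factors that act on IL11 or IL6 transcription or on their mRNA all passed the filter, 31 genes in number, with 1 called higher, 2 lower, near the shares of 5.42% and 6.35% over all genes, and a median log2 change of 0.17. ZFP36L1, which encodes a protein that binds AU-rich mRNA elements, measured 60.7 RPKM in WT against 129 in MYOCD. The AP-1 and stress factor genes FOS (4.67 and 1.02 RPKM) and ATF3 (6.13 and 2.14) were called lower. Other AP-1 genes lay under 2-fold with the pseudocount of 0.5 RPKM. Among them were FOSL2 at 30.3 and 58.6 RPKM, JUNB at 23.5 and 43.03, JUN at 13.5 and 17.8, FOSL1 at 38.1 and 41.5, and JUND at 29.9 and 22.1. FOSB, at 0.446 and 1.19 RPKM, was 2.67 times as high in MYOCD between the deposited values and fell short through the pseudocount. With the reference genes at 0, 3 genes of this list were called higher, FOSL2 and RUNX2 (1.002 and 2.43 RPKM) beside ZFP36L1. With a pseudocount of 0.1 RPKM there were also 3, FOSB and RUNX2 beside ZFP36L1. ZC3H12A, the gene of an RNase that degrades IL6 mRNA, stood at 11.6 and 6.16 RPKM. TGFB1 stood at 113 and 106 RPKM and TGFB2 at 46.2 and 32.9.

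**Figure D4:**
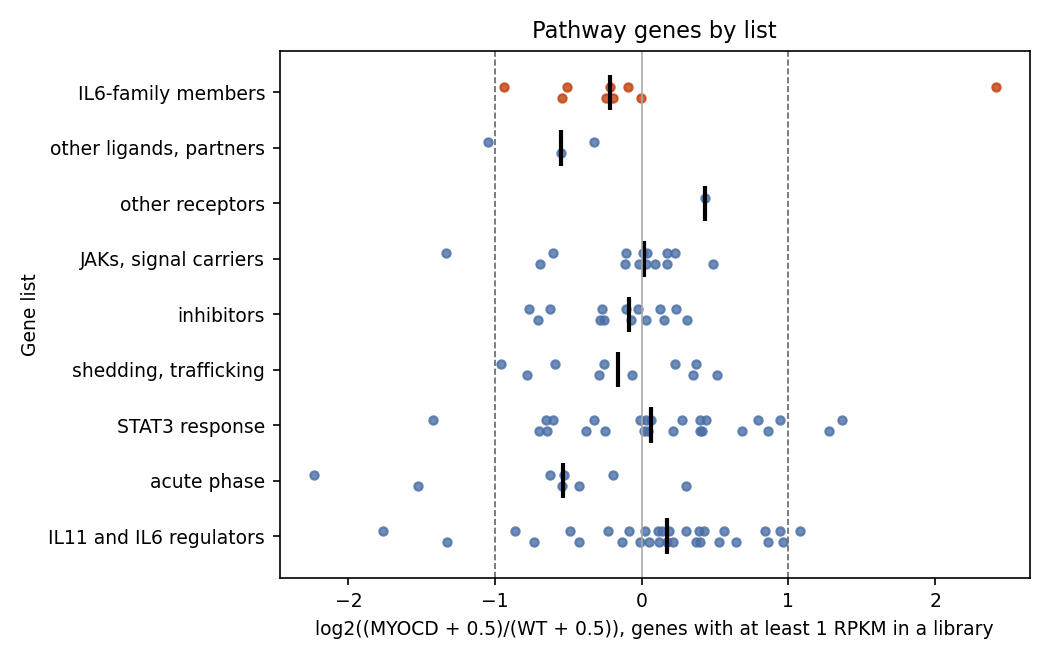
Log2 change with a pseudocount of 0.5 RPKM (horizontal axis) of each gene with at least 1 RPKM in a library, 1 point a gene, for the 10 chosen genes (orange) and 8 pathway lists (blue), with a black bar at each list's median and dashed lines at 2-fold. The IL6-family row has IL11 at 2.41 and a median of -0.21, and no point in the other rows lies as far to the right as IL11.

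Around IL11 on chromosome 19 the nearest protein-coding genes had little or no transcript. FAM71E2, which ends 1129 bases from IL11, was listed at 0 in both libraries. TMEM190, on the other side at a distance of 6373 bases, measured 0.224 RPKM in WT against 0.537 in MYOCD. Among 12336 other protein-coding genes past the filter, the 5 with levels most like those of IL11, by the distance between log2(RPKM + 0.5) values over the 2 libraries, were FOXP1 (4.65 and 27.2 RPKM), COL5A1 (4.27 and 34.01), SEC14L2 (7.28 and 28.5), NEK3 (7.40 and 24.7) and ALG14 (5.52 and 21.5). With 2 libraries such likeness means only that both levels are close.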

How the data were processed

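RNA of WT and MYOCD A549 cells was sequenced in 1 library each. The values are RPKM as the authors deposited them, per the file headers, and a key above the table ties each column to its group. The submitters' processing notes name Bowtie 0.12.2 and the builds mm8 (mouse) and GRCh38.p12, without saying what each was used for. The labels name no counter, annotation or use of strand. Depth is unknown, so no counting intervals or count tests were computed, and precision cannot be stated.

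Computed here with Python 3.11.15, pandas 2.3.3 and numpy 2.4.6 were log2 changes with a pseudocount of 0.5 RPKM, a filter of at least 1 RPKM in at least 1 library, and calls at 2-fold. The functions were checked on simulated data with large changes in genes of at least 5 RPKM in WT. That check does not cover calls near 2-fold or at low levels. Of 248 symbols on several rows, the row with the higher mean was used. Positions and gene types came from GENCODE 29, matched by identifier to 57375 of 57979 rows. The members and lists were chosen with earlier results of these data known. Genes named were the members, MYOCD, called and most abundant genes of each list, the most abundant 2 of each marker list, and those nearest to IL11 in level or position. Beyond that rule, further genes of the lists (OSM, CNTFR, the JAK kinases, SOCS3, ADAM17, SORL1, ERAP1, USP12, FGB, FGG, CRP, the AP-1 genes, RUNX2, ZC3H12A, TGFB1, TGFB2 and further markers) and overlapping genes were named after their values were seen. Alternatives changed the pseudocount, the scaling and the filter. Some genes that the rule names are not reported here.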

Additional observations from a re-analysis of the deposited data

How the results depend on the processing

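IL11 was called higher under all alternatives tried, with a log2 change of 2.32 to 2.50. Of 200 alternative values 179 kept their direction and their side of 2-fold, or moved little. With a pseudocount of 0.1 RPKM, the members called lower numbered 1 (IL6R, -1.04), shedding genes called lower 1, and IL11 and IL6 regulators called higher 3. Over all genes 6.96% were called higher and 8.25% lower at that setting. With a pseudocount of 1 RPKM, called lower were 0 of the STAT3 response genes and 0 of the other ligands. With the reference genes at 0, which moves all values by 0.09, the regulators called higher numbered 3, the STAT3 response genes called higher 3, the other ligands called lower 0, and STAT3 was at 0.08. With a filter of at least 5 RPKM, fewer genes were tested, and 4.46% of all genes were called lower. Called lower were 0 STAT3 response genes, 0 other ligands, 1 acute phase gene and 1 regulator. The median of the STAT3 response genes was 0.25. Without a filter, more genes near 0 entered: 1 acute phase gene was called higher and 4 lower, beside 2.17% and 2.57% of all genes. The medians were -0.14 for acute phase genes, -0.26 for the other ligands, 0.064 for the other receptors and -0.019 for the signal carriers, which reversed sign. Among protein-coding genes alone 6.11% of genes were at or beyond 2-fold, against 11.8% over all genes. No paired analysis was possible because each group has 1 library.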

Other observations

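Among interleukin and interleukin receptor genes as a whole, a set taken by symbol after the values had been seen, IL11 had the largest log2 change of those past the filter. Of 85 protein-coding symbols 23 passed the filter, 3 were called higher and 2 lower, beside 3.02% and 3.1% of all protein-coding genes, and the median log2 change was -0.05. The others called higher were IL4R, a receptor chain for IL4 and IL13 (6.94 RPKM in WT and 17.6 in MYOCD), and IL18BP, the gene of a secreted decoy that binds IL18 (3.60 and 7.90). IL18 itself stood at 63.4 and 41.5 RPKM. The receptor genes IL3RA (4.19 and 1.38 RPKM) and IL17RE (1.27 and 0.364) were called lower. IL15, a cytokine gene, stood at 6.39 and 10.4 RPKM and its receptor gene IL15RA at 2.28 and 1.19, both under 2-fold.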
